A study of Homo sapiens with 6 samples.

Results

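The 10 genes described here encode proteins known to make or sense prostaglandins. Their RNA was measured in fibroblasts arrested in mitosis, and they were chosen by their symbols from the 63009 genes read from the deposited expression table. They are the phospholipase gene PLA2G4A, the cyclooxygenase genes PTGS1 and PTGS2, the terminal synthase genes PTGES, PTGES2, PTGES3 and PTGIS, and the receptor genes PTGER2, PTGER4 and PTGFR. The cells were ERRAS cells, which are early passage human IMR90 lung fibroblasts transduced with a retrovirus that encodes oncogenic H-RasV12 fused to the ligand-binding domain of the estrogen receptor. RNA was compared between 3 libraries of uninduced cells (control mitotic cells) and 3 libraries of cells in which Ras had been induced with tamoxifen for 4 days (Ras-induced mitotic cells). The labels give the tamoxifen dose as 100 nM, while the methods of the study give the same figure in ng/ml of 4-hydroxytamoxifen. Both groups carried the construct, grew in G418 at low oxygen, and received 1 μM DME, which blocks the mitotic kinesin Eg5, before the detached cells were collected. Every library is therefore of cells collected after drug arrest from a transduced population, and no library of untransduced or cycling cells was compared here. The study reports that most of the collected cells, though not all, were mitotic. The study states that the experiment was repeated independently, and the table numbers the libraries of each group without naming the sample.

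Prostaglandins are short-lived lipid signals. Phospholipase A2 frees arachidonic acid from membranes, a cyclooxygenase converts it to prostaglandin H2, and terminal synthases turn that into prostaglandin E2, prostacyclin, prostaglandin F2α or thromboxane. The products leave the cell and act on G protein-coupled receptors of the same cell or its neighbours. In fibroblasts the pathway is best known for its place in inflammation and wound repair, where PTGS2 is the cyclooxygenase gene that growth factors and cytokines switch on, and prostaglandin E2 is also known as a product of senescent fibroblasts.

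Ras-induced mitotic cells had less PTGFR, which encodes the receptor of prostaglandin F2α, and more PLA2G4A, which encodes the cytosolic phospholipase that releases arachidonic acid. PTGFR fell 3.03-fold by the group means and PLA2G4A rose 2.15-fold. The PTGFR call stood in 12 of 13 alternative ways of processing, whereas the PLA2G4A call was just inside the threshold and was lost in 10 of 13. The cyclooxygenases had opposite signs of difference, with PTGS1 at 1.52-fold lower and PTGS2 at 2.28-fold higher group means, and neither passed the test after adjustment over all genes. The synthases of prostaglandin E2 that were expressed, PTGES2 and PTGES3, had higher means in Ras-induced cells without passing the test. PTGES, the inducible synthase of prostaglandin E2, and PTGIS, the prostacyclin synthase, were close to 0 FPKM in both groups.

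Expression is given as FPKM, the fragments assigned to a gene, scaled to the length of its transcript and to the mapped fragments of the library, so that levels can be set side by side between genes. The test was limma on log2(FPKM + 1), run for every gene that averaged 1 FPKM or more across both groups. Calls are at a false discovery rate of 0.05 (Benjamini-Hochberg adjusted p). The scale understates the change of genes at low FPKM. With 0.1 FPKM added in place of 1, the log2 differences given below for PLA2G4A, PTGS2 and PTGFR became 1.11, 1.09 and -1.54. Of the 10 genes 8 were tested, and 2 of them were called, 1 higher and 1 lower. Among all 13993 tested genes 16.7% were called, 11.0% higher and 5.67% lower. A count of 2 in 8 is too near that share to be a result about the list. Their median log2 difference was 0.23, beside 0.10 for all tested genes. After scaling the libraries to a common upper quartile the median of all genes was 0.0047, and the calls over all genes, 1543 higher and 793 lower as deposited, became 921 higher and 1101 lower. After quantile normalization they were 1044 higher and 1109 lower.

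HRAS, measured from the cell's own gene and the transgene together, lay between 1140 and 1176 FPKM in control and between 1439 and 1847 FPKM in Ras-induced libraries. The depth of the libraries, read from the steps between low values relative to the first control library, was between 0.95 and 1.17 in the controls and between 0.848 and 1.13 after induction, and no absolute depth was at hand. Of 8 fibroblast markers all were expressed. COL1A2 and THY1 were called lower, and the summed level of the list was 4720 to 5330 FPKM in control and 3130 to 4350 FPKM in Ras-induced libraries. COL1A1, COL3A1 and FAP also had groups that did not overlap, the collagens lower and FAP higher (39.04 and 66.3 FPKM), and were not called, while VIM, PDGFRA and PDGFRB overlapped. Of 8 mitotic markers 5 were called lower (CCNA2, PLK1, BUB1, CENPF and TOP2A), with sums of 1390 to 1420 and 1120 to 1220 FPKM, and CDK1 was listed at means of only 3.68 and 2.73 FPKM. Over all tested genes 5.67% were called lower. PLK1 and TOP2A lost their calls with the limit at a mean of 0.1 FPKM (adjusted p = 0.0621 and 0.0508 from limma). PECAM1 and ITGAM were listed at 0 in every library. Of 5 endothelial markers only TEK was tested, and it was called lower (15.3 and 4.93 FPKM). Of 5 leukocyte markers only CD68 was tested (27.8 and 33.2 FPKM, not called), and PTPRC had a mean of at most 0.00468 FPKM. None of the 4 tested of 6 epithelial markers was called, and their list summed to 64.9 to 71.5 and 73.4 to 78.8 FPKM, mostly from KRT18. EPCAM, too low for the test, was at 1.24 and 0.288 FPKM without overlap (adjusted p = 0.0425 from limma with the limit at a mean of 0.1 FPKM). The part of these shifts in the results below was not tested. In bulk RNA, fewer cells with a transcript and less of it in each cell cannot be told apart.

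**Figure D1:**
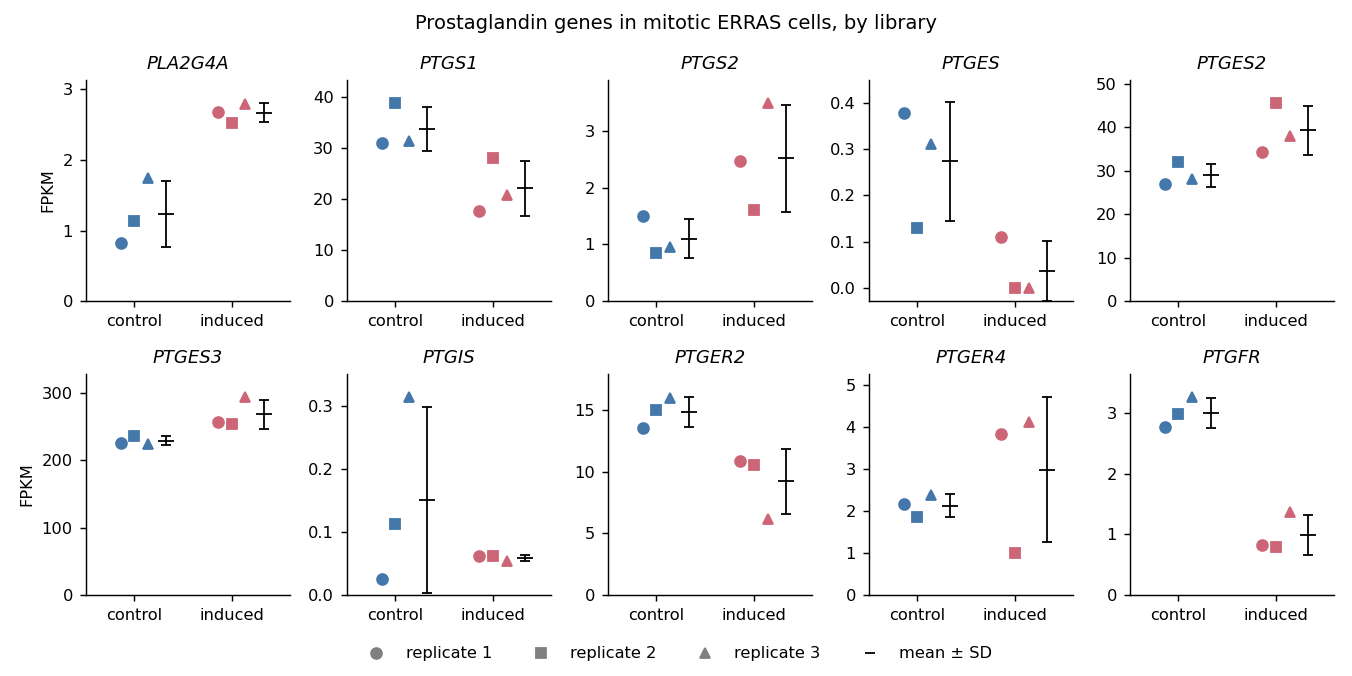
FPKM of each of the 10 genes (vertical axes, a scale for each gene) in the 3 control and the 3 Ras-induced libraries. Points are libraries, with a marker for each replicate number, and bars are the mean ± SD of 3 libraries. PTGFR lies at 2.76 to 3.25 in control and at 0.785 to 1.36 in Ras-induced libraries, and in PTGER4 the second induced library lies under all controls.

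The sequences below are printed for the members called and for PTGS2, the member known for rapid induction. They are reference promoter windows from RefSeq, each 250 bases before and 50 after a start site, that were matched exactly to GRCh37, the build of the deposited data (hg19). Windows were at hand for 9 of the 10 genes, all but PTGIS. Capitals mark matches on either strand to 4 motifs: a TATA box (TATAAA), the core of a cyclic AMP response element, CRE (CGTCA), a C/EBP site (TTNNGCAA) and a GC box (GGGCGG). A consensus for NF-κB was searched as well. The PTGS2 window is chr1:186649506-186649805 on the minus strand, the PLA2G4A window is chr1:186797831-186798130 on the plus strand, and the PTGFR window is chr1:78956409-78956708 on the plus strand.
PTGS2 promoter: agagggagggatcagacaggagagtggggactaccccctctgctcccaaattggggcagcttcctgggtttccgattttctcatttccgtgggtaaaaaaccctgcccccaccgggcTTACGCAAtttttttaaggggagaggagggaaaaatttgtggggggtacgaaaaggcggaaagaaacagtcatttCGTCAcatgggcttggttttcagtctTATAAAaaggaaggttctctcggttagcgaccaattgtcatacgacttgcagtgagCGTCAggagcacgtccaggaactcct
PLA2G4A promoter: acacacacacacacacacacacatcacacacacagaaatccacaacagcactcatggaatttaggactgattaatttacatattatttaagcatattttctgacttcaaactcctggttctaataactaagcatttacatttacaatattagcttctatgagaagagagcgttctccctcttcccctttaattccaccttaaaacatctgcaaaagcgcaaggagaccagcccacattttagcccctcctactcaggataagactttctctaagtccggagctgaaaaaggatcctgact
PTGFR promoter: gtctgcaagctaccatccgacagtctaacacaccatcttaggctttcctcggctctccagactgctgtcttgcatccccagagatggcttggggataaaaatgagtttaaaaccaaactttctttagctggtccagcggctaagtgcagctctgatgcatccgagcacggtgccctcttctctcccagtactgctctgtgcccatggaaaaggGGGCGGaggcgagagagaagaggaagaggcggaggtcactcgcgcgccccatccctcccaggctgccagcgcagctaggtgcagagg

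The PTGS2 window held a C/EBP match from position -133, CRE core matches from -58 and 25, and a TATA box from -32, counted from the start site with no position 0. The PTGFR window held a GC box from -37 and the PLA2G4A window held none of the motifs. The NF-κB consensus had no match in these 3 windows, which says only that its letters are not there. Among 34796 promoter windows of the same length, 11.6% held the TATA box, 24.5% the CRE core, 10.5% the C/EBP site, 44.9% the GC box and 11.3% the NF-κB consensus. Of the members, PTGS2 had the only window at an annotated canonical start with a TATA box. A PTGS1 window, 491 bases from the canonical start, held a TATA box match from -208. The NF-κB consensus matched in the windows of PTGER2, PTGER4 and PTGES3. A match is a description of the letters and not a site of binding.

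PTGS2 mRNA is also known for being short-lived through AU-rich elements in its 3′ untranslated region, which hold repeats of ATTTA. The canonical PTGS2 transcript of GENCODE 44 had 22 of these pentamers in 2562 bases of 3′ untranslated region, and 2.33% of 19553 coding transcripts had as many or more. The median over all of them was 2. The other members had from 0 (PTGES2) to 11 (PTGFR). Counts grow with length, and per kilobase PTGS2 (8.59) was close to PLA2G4A (8.46, from 4 pentamers in 473 bases), followed by PTGER4 (6.63), PTGES3 (5.31), PTGER2 (4.37) and PTGFR (2.74). The stretch right after the PTGS2 stop codon, chr1:186643455-186643484 of GRCh37 on the minus strand, is printed with its overlapping pentamers in capitals.
PTGS2 AU-rich stretch: aagtctaatgatcatATTTATTTATTTAta

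**Figure D2:**
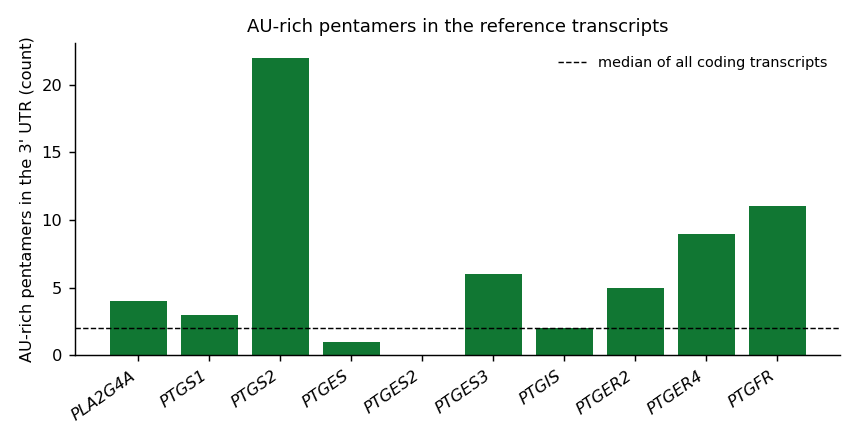
Number of AU-rich pentamers in the 3′ untranslated region of the canonical transcript of each gene (vertical axis, counts), with the median of 19553 coding transcripts as a dashed line. PTGS2 has 22, PTGFR 11 and PTGER4 9, against a median of 2. The counts are not divided by length, and per kilobase PLA2G4A (8.46) comes next to PTGS2 (8.59).

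PLA2G4A (ENSG00000116711, chromosome 1 of GRCh37 from 186798081 to 186958113) encodes cytosolic phospholipase A2α, the enzyme that supplies arachidonic acid for signalling. It measured 0.822, 1.14 and 1.75 FPKM in the control libraries and 2.67, 2.53 and 2.79 FPKM in the Ras-induced libraries. Every induced library lay above every control. The log2 difference was 0.73 (standard error 0.20, adjusted p = 0.0483 from limma), so the call stood just inside the threshold. It was lost in 10 of 13 alternatives, with adjusted p from 0.0294 to 0.135 and log2 differences from 0.59 to 1.11. With all 6 libraries these include quantile normalization (adjusted p = 0.0733 from limma), upper quartile scaling (0.0796) and the lower filters (0.0533 and 0.109). It was also lost without control library 1, 2 or any one of the induced libraries (0.0925 to 0.135).

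PLA2G4A and PTGS2 are neighbours on chromosome 1. They point away from each other with 148 kb between them, and no other annotated gene lies wholly in between. Their group means were both higher in Ras-induced cells. Across the 6 libraries their Pearson r was 0.68 on log2(FPKM + 1), which placed PLA2G4A at rank 3108 of 13992 genes by likeness to PTGS2. These are the same 6 libraries in 2 groups, and the value is a description.

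PTGS1 (ENSG00000095303, chromosome 9 from 125132809 to 125157982), the constitutive cyclooxygenase-1, was the more abundant cyclooxygenase in every library. It measured 31.0, 38.8 and 31.5 FPKM in control and 17.6, 28.1 and 20.9 FPKM in Ras-induced cells. The induced libraries were all below the controls, with the second induced library nearest to them. Its log2 difference was -0.60 (standard error 0.18, 95% interval -1.03 to -0.17, adjusted p = 0.0646 from limma), which missed the threshold. It passed in 4 of 13 alternatives. These were quantile normalization (adjusted p = 0.0457 from limma), upper quartile scaling (0.0424), leaving out induced library 2 (0.0299), and the replicate block described at the end.

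PTGS2 (ENSG00000073756, chromosome 1 from 186640923 to 186650054), the inducible cyclooxygenase-2 whose promoter and AU-rich stretch are shown above, was low in all libraries. It measured 1.5, 0.850 and 0.956 FPKM in control and 2.46, 1.6 and 3.48 FPKM in Ras-induced cells. The groups did not overlap, but the lowest induced library was only slightly above the highest control. The log2 difference was 0.72 (standard error 0.25, 95% interval 0.12 to 1.32, adjusted p = 0.0969 from limma), and it was not called in any of 13 alternatives, whose adjusted p ran from 0.0613 to 0.247. PTGS2 overlaps the antisense RNA gene PACERR at its start, and the kit used does not record strand.

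Within a library, PTGS2 made up 4.62%, 2.14% and 2.94% of the summed FPKM of both cyclooxygenases in control and 12.3%, 5.39% and 14.3% in Ras-induced cells. Such a share does not depend on the scaling between libraries. The log2 ratio of PTGS2 to PTGS1, each with 1 FPKM added, was -4.05 ± 0.38 (SD, n = 3) in control and -2.73 ± 0.65 (SD, n = 3) in Ras-induced cells. The ratios of the groups did not overlap and differed by 1.32 (two-sided exact permutation p = 0.1, the smallest that 3 libraries against 3 allow). PTGS1 remained above PTGS2 by a wide margin in all 6 libraries.

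**Figure D3:**
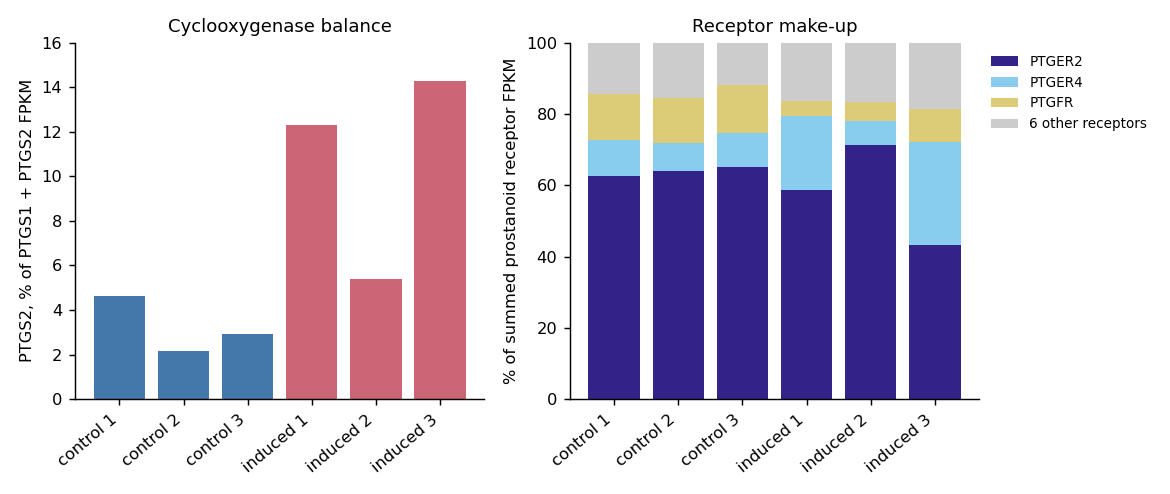
Left, PTGS2 as a percentage of the summed FPKM of PTGS1 and PTGS2 in each library. Right, the percentage of the summed FPKM of 9 prostanoid receptor genes taken by PTGER2, PTGER4, PTGFR and the other 6 in each library. The PTGS2 share is 2.14% to 4.62% in control and 5.39% to 14.3% in Ras-induced libraries, and PTGER2 is the largest receptor share in every library.

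PTGES (ENSG00000148344, chromosome 9 from 132500610 to 132515321), the microsomal synthase that is often induced together with PTGS2, was under the limit for a test. It was listed at 0.379, 0.131 and 0.311 FPKM in control and at 0.111, 2.719e-06 and 2.344e-06 FPKM in Ras-induced cells. The induced libraries lay below the controls, all of them far under 1 FPKM, and no fold is given. With the limit lowered to a mean of 0.1 FPKM its adjusted p from limma was 0.144.

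PTGES2 (ENSG00000148334, chromosome 9 from 130882972 to 130890741) encodes a second membrane-associated synthase of prostaglandin E2. It measured 26.9, 32.0 and 28.2 FPKM in control and 34.5, 45.5 and 38.0 FPKM in Ras-induced cells. The induced libraries were all above the controls. Its log2 difference was 0.42 (standard error 0.12, 95% interval 0.12 to 0.72, adjusted p = 0.063 from limma), which missed the threshold. It passed in 1 of 13 alternatives, the replicate block described at the end.

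PTGES3 (ENSG00000110958, chromosome 12 from 57057125 to 57082192) encodes p23, a synthase of prostaglandin E2 that is also a cochaperone of HSP90, and it was by far the most abundant member. It measured 225.7, 236.2 and 223.9 FPKM in control and 256.9, 253.9 and 293.2 FPKM in Ras-induced cells. The difference was small, with a log2 value of 0.23 (95% interval 0.03 to 0.42, adjusted p = 0.109 from limma), and it was 0.12 after upper quartile scaling. Of 7 genes for HSP90 and its cochaperones 3 were called, all higher: AHSA1 (108.7 and 164.5 FPKM), FKBP4 (45.7 and 74.4 FPKM) and STIP1 (202.3 and 258.1 FPKM). Over all tested genes 11.0% were called higher. The median of the 7 was 0.32. STIP1 was close to the threshold (adjusted p = 0.0494 from limma) and lost its call with the limit at a mean of 0.1 FPKM (0.0665).

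PTGIS (ENSG00000124212, chromosome 20 from 48120411 to 48184674), the prostacyclin synthase, was likewise too low for a test. It was listed at 0.0260, 0.113 and 0.313 FPKM in control and at 0.0612, 0.0621 and 0.0535 FPKM in Ras-induced cells. The groups overlapped. The log2 ratio of PTGES to PTGIS, with 1 FPKM added to each, was 0.15 ± 0.24 (SD, n = 3) in control and -0.03 ± 0.09 (SD, n = 3) in Ras-induced cells (two-sided exact permutation p = 0.3). The difference of -0.18 was -0.042 without control library 1 and -0.99 with 0.1 FPKM added in place of 1, so its size has little meaning at these levels.

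PTGER2 (ENSG00000125384, chromosome 14 from 52781023 to 52795316) encodes EP2, a receptor of prostaglandin E2 that raises cyclic AMP. It was the most abundant prostanoid receptor, at 13.56, 14.99 and 15.97 FPKM in control and 10.9, 10.6 and 6.21 FPKM in Ras-induced cells. Every induced library lay below every control, with the third induced library lowest. Its log2 difference was -0.66 (standard error 0.20, 95% interval -1.15 to -0.18, adjusted p = 0.0692 from limma). It was called only after quantile normalization among the 13 alternatives (adjusted p = 0.0493 from limma). Without induced library 3 the log2 difference was -0.43.

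PTGER4 (ENSG00000171522, chromosome 5 from 40680017 to 40693837) encodes EP4, the other cyclic AMP-raising receptor of prostaglandin E2. It measured 2.17, 1.85 and 2.38 FPKM in control and 3.85, 1.00 and 4.12 FPKM in Ras-induced cells. Of the induced libraries 2 lay above the controls and the second lay below them, so the groups overlapped. The log2 difference was 0.23 (95% interval -0.64 to 1.11, adjusted p = 0.693 from limma). Without induced library 2 it was 0.67 and was called (adjusted p = 0.049), and without induced library 3 it was -0.0053 (adjusted p = 0.994). PTGER4 lies within the span of TTC33 on the opposite strand, which measured 8.87 FPKM in control and 11.7 FPKM in Ras-induced cells, and reads without strand cannot be told apart where such genes overlap.

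The log2 ratio of PTGER2 to PTGER4 was 2.34 ± 0.14 (SD, n = 3) in control and 1.44 ± 1.03 (SD, n = 3) in Ras-induced cells. The control libraries were tightly grouped and the induced ones ran from 0.49 to 2.53, so the difference of -0.90 lay within the spread (two-sided exact permutation p = 0.4). It was -1.44 without induced library 2 and -0.43 without induced library 3.

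PTGFR (ENSG00000122420, chromosome 1 from 78769568 to 79006386) encodes FP, the receptor of prostaglandin F2α, which signals through calcium. It measured 2.76, 2.98 and 3.25 FPKM in control and 0.821, 0.785 and 1.36 FPKM in Ras-induced cells. The groups were well apart. The log2 difference was -1.02 (standard error 0.18, adjusted p = 0.0141 from limma). The call stood in 12 of 13 alternatives, with adjusted p from 0.00945 to 0.0528, and was lost without control library 2. In the receptor make-up PTGFR went from 12.8%, 12.7% and 13.3% of the summed prostanoid receptor FPKM to 4.42%, 5.29% and 9.50%.

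Of the 8 tested members 7 had groups that did not overlap, PTGER4 being the exception, where 39.9% of all tested genes had this property. With few members that read the same 6 libraries this is a description. In control cells the members ranked from PTGES3 through PTGS1, PTGES2, PTGER2, PTGFR, PTGER4, PLA2G4A, PTGS2 and PTGES to PTGIS by mean FPKM. PTGS1 and PTGES2 had means of 33.8 ± 4.37 and 29.02 ± 2.65 FPKM (SD, n = 3), with PTGS1 the higher in each control library. PLA2G4A and PTGS2 had 1.24 ± 0.472 and 1.10 ± 0.349 FPKM (SD, n = 3) and changed places between control libraries, as PTGES and PTGIS did. In Ras-induced cells PTGES2 stood above PTGS1 in each library, PTGER4, PLA2G4A and PTGS2 changed places between libraries, and PTGFR dropped from the fifth place to the eighth.

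**Figure D4:**
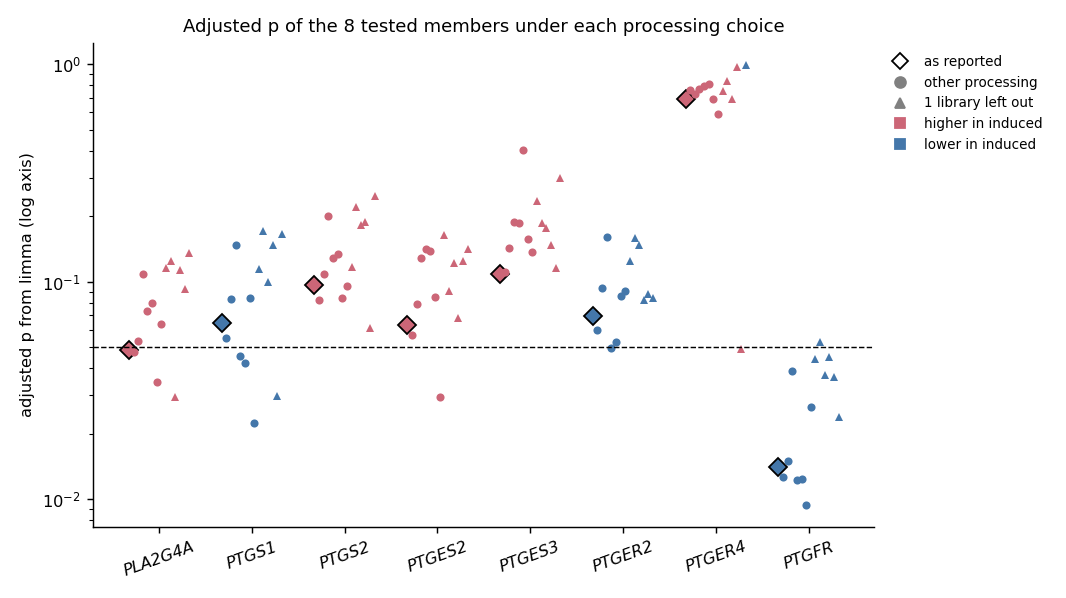
Adjusted p from limma (vertical axis, log scale) of the 8 tested members as reported (diamonds), under 7 other processing choices (circles) and with 1 library left out (triangles), coloured by the direction of the difference. The dashed line is the threshold of 0.05. PTGFR lies under it in all settings but 1, PLA2G4A straddles it, and PTGS2 lies above it throughout.

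The rest of the pathway was read from lists of named genes. Over all tested genes 16.7% were called, 11.0% higher and 5.67% lower, and the counts below stand beside that share. Among 7 other prostanoid synthases and reductases, 4 were tested and 3 were called. TBXAS1, the thromboxane synthase, rose from 9.60, 5.97 and 6.89 FPKM to 19.3, 18.9 and 16.2 FPKM, a log2 difference of 1.19 (standard error 0.17, adjusted p = 0.00773 from limma). CBR1, a carbonyl reductase that can convert prostaglandin E2 to F2α, rose from 48.2, 52.9 and 51.5 FPKM to 79.0, 83.6 and 84.0 FPKM (log2 difference 0.68, adjusted p = 0.00368 from limma). AKR1B1, an aldose reductase with prostaglandin F synthase activity, fell from 146.0, 124.2 and 135.9 FPKM to 110.5, 107.0 and 102.2 FPKM (log2 difference -0.34, adjusted p = 0.0392 from limma). For each of these 3 genes the groups were apart. Of the prostaglandin D2 synthase genes, HPGDS was listed at 0 in every library and PTGDS in 5 of 6.

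Of 13 genes that release, activate or recycle arachidonic acid 9 were tested and 1 was called. This was MGLL, the monoacylglycerol lipase, which fell from 116.8, 108.2 and 109.7 FPKM to 69.4, 66.8 and 81.3 FPKM (log2 difference -0.62, standard error 0.09, adjusted p = 0.00963 from limma). The secreted phospholipase gene PLA2G2A was listed at 0 in every library. The median log2 difference of the 9 tested genes was -0.015. Of 7 other receptor genes or receptor partners 2 were tested and none was called, namely TBXA2R, the thromboxane receptor (1.54 and 1.22 FPKM), and PTGER1 (1.42 and 1.15 FPKM). Of 5 genes for transport and breakdown 3 were tested and none was called. The most abundant of them were PTGR1 (51.7 and 59.7 FPKM) and the exporter gene ABCC4 (30.02 and 38.4 FPKM), and HPGD, which encodes the dehydrogenase that inactivates prostaglandins, was listed at 0 in every library. Of 7 genes of the leukotriene branch only LTA4H was tested (17.6 and 24.2 FPKM, not called), and ALOX5 and ALOX15 were listed at 0 throughout.

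**Figure D5:**
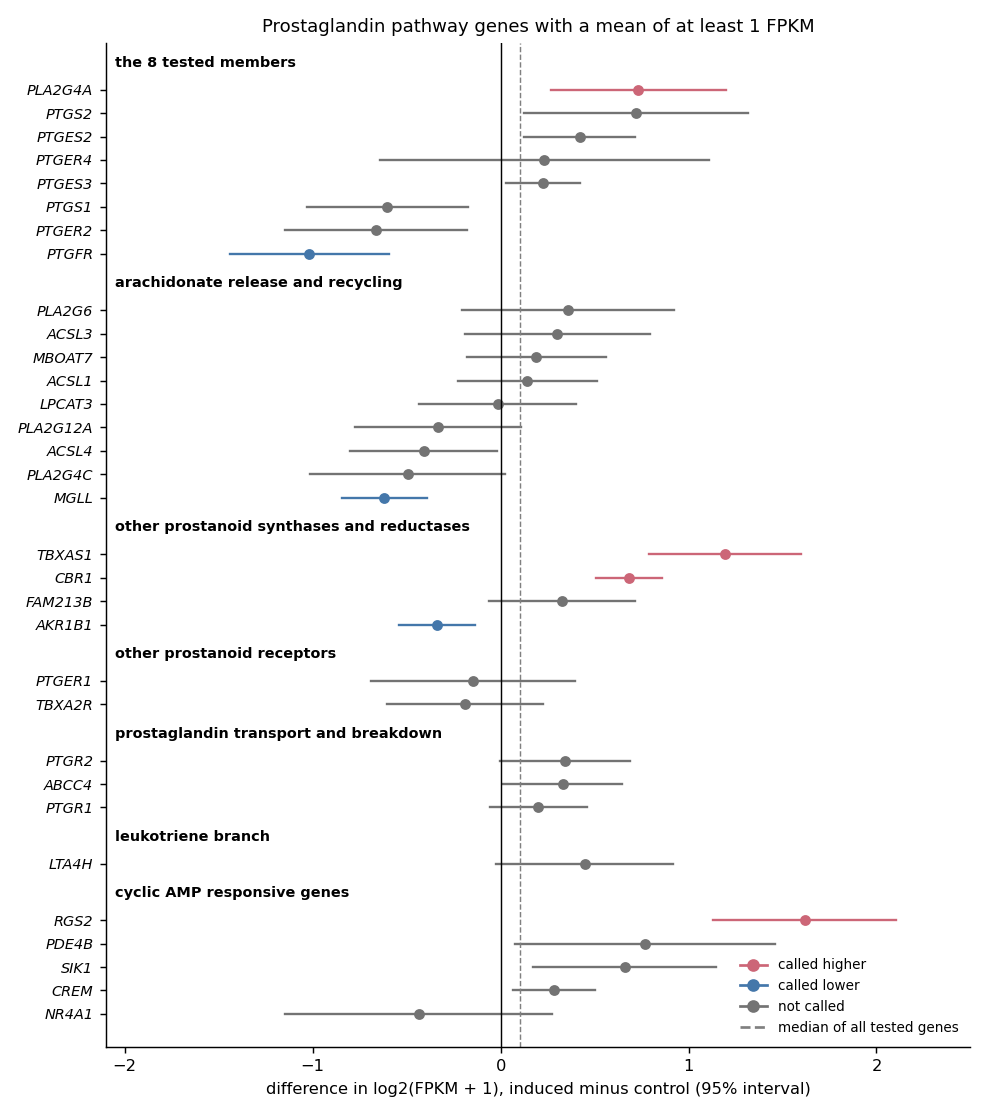
Difference in log2(FPKM + 1) between Ras-induced and control cells (horizontal axis, with 95% intervals from limma) for the tested members and the tested genes of 6 other lists. Colours mark the genes called at an adjusted p at or under 0.05 and the dashed line is the median of all tested genes, 0.10. RGS2 and TBXAS1 lie farthest to the right and PTGFR farthest to the left.

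Genes of cyclic AMP signalling, which EP2 and EP4 feed into, gave 1 call in 10 tested of 11. It was PRKACB, a catalytic subunit of protein kinase A, which rose from 19.7, 17.3 and 14.3 FPKM to 44.5, 40.3 and 32.9 FPKM (log2 difference 1.15, standard error 0.15, adjusted p = 0.00651 from limma). Of 9 genes known to respond to cyclic AMP 5 were tested and 1 was called, RGS2, a regulator of G protein signalling. It rose from 1.00, 1.78 and 2.30 FPKM to 7.57, 6.31 and 7.49 FPKM (log2 difference 1.62, standard error 0.20, adjusted p = 0.00552 from limma). The medians of the tested genes of the 2 lists were 0.08 and 0.66.

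Of 10 transcription factor genes known to act on the PTGS2 promoter all were tested and 3 were called, all higher. Over all tested genes 11.0% were called higher. Whether these 3 bear on PTGS2, which was not called itself, was not tested. CEBPB, whose protein binds C/EBP sites, rose from 16.4, 11.1 and 8.75 FPKM to 27.8, 25.6 and 27.9 FPKM (log2 difference 1.14, adjusted p = 0.0149 from limma). FOS, a subunit of AP-1, rose from 1.56, 1.45 and 1.20 FPKM to 3.56, 3.396 and 3.41 FPKM (log2 difference 0.89, adjusted p = 0.0101 from limma). USF2 rose from 54.2, 55.9 and 60.2 FPKM to 75.2, 74.5 and 78.0 FPKM (log2 difference 0.41, adjusted p = 0.0144 from limma). Of 9 genes for proteins known to bind AU-rich PTGS2 mRNA all were tested, none was called, and their median was 0.02. HNRNPD (265.2 and 242.6 FPKM) and KHSRP (180.8 and 193.1 FPKM) were the most abundant of them.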

How the data were processed

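Poly(A) RNA of 6 libraries was sequenced by the authors as paired-end reads, trimmed with Trim Galore 0.3.0 per the submitters' processing notes, and aligned to hg19 with Tophat2 using Ensembl build 73 junctions. The deposited FPKM values were calculated by the authors with Cufflinks, 1 column for each library, and no scaling between libraries is given in the sources used here. Of 63129 listed genes, 120 with more than 6 values were left out, 18 unnamed columns were not used, and a second header line was dropped. The authors' cuffdiff comparison (fold changes, test statistics, p-values and q-values) was not used. FPKM is no count and keeps no absolute depth, so log2(FPKM + 1) was tested with limma 3.58.1 (R 4.3.3, mean-variance trend, no block), two-sided, and p-values were adjusted (Benjamini-Hochberg) across the 13993 genes averaging 1 FPKM or more. Ratios within libraries were compared by exact permutation over libraries, in Python 3.11.15 with scipy 1.17.1. Positions are from GENCODE 44 lifted to GRCh37.

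The members and gene lists were chosen with earlier results of these data known. Named by rule are all members, in each list the called genes (at most 4) or the 2 most abundant, and the 5 genes most like PTGS2. Genes named as listed at 0 or nearly so, all markers, and the cyclic AMP responsive genes other than RGS2 were named outside that rule after their values were seen. The fit was tested on simulated data without a scale difference between libraries. Of 200 genes changed by known amounts 129 (64.5%) were called, as were 11 unchanged genes, so a gene not called may still differ. Libraries with the same number deviated from their group means with correlations of -0.00266, 0.0433 and 0.0481 across genes. Those with different numbers ran from -0.0679 to 0.0311. All are small, so the numbers were not taken as pairs, but this check cannot exclude pairing by repeat. Alternatives were another pseudocount (0.1), 2 other filters, 2 scalings, no trend, a replicate block and each library left out.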

Additional observations from a re-analysis of the deposited data

How the results depend on the processing

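As reported, 1 member was called higher (PLA2G4A) and 1 lower (PTGFR). The number called higher was 0 with the filter at a mean of 0.1 FPKM, with no filter, after quantile normalization and after upper quartile scaling, and between 0 and 1 with a library left out. PLA2G4A also lost its call with the replicate number as a block, where PTGES2 was called in place of PLA2G4A (adjusted p = 0.0294 and 0.0642 from limma), so that the number stayed at 1. The number called lower was 3 after quantile normalization (PTGFR, PTGS1 and PTGER2), 2 after upper quartile scaling and 2 with the replicate block (PTGFR and PTGS1, the latter at 0.0225), and between 0 and 2 with a library left out. The difference in the log2 ratio of PTGES to PTGIS was -0.18 as reported and -0.99 with a pseudocount of 0.1. PTGER4 went from 0.23 to -0.0053 without induced library 3, and to 0.67 without induced library 2, where it was the member called higher and PLA2G4A was not. The other tested members kept their direction in every alternative run. The 2 other filters, no trend and the replicate block cannot change a difference, so only the remaining alternatives bear on this. PTGES and PTGIS were run only with those filters, so their direction was not checked. The causes were not tested. With 3 libraries a group and no absolute depth at hand, PTGES and PTGIS, both under 1 FPKM, could not be compared with confidence.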

Other observations

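NR4A3, an orphan nuclear receptor gene among those known to respond to cyclic AMP, was singled out once its values were known. It was under the limit of 1 FPKM, at 0.1495, 0.123 and 0.103 FPKM in control and at 2.64, 1.17 and 1.20 FPKM in Ras-induced libraries, and every induced library was above every control. With the limit lowered to a mean of 0.1 FPKM its adjusted p from limma was 0.021. Beside RGS2, the other 7 genes of the list were not called or not tested. SIK1, PDE4B and CREM had groups that did not overlap, with control and induced means of 0.645 and 1.61 FPKM for SIK1, 1.23 and 2.70 FPKM for PDE4B, and 28.7 and 35.2 FPKM for CREM (adjusted p = 0.071, 0.119 and 0.079 from limma). At the lowered limit SIK1 passed (adjusted p = 0.0482 from limma), and PDE4B (0.141) and CREM (0.0961) did not. The groups overlapped for NR4A1 (3.59 and 2.59 FPKM), NR4A2 (0.405 and 0.348 FPKM), PDE4D (0.593 and 0.761 FPKM) and PER1 (0.774 and 1.15 FPKM), the NR4A pair with lower and the other pair with higher induced means.

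The 5 tested genes whose pattern over the 6 libraries was most like that of PTGS2 on log2(FPKM + 1) were ADAM8 (Pearson r of 0.9947), AC104655.2 (0.9946), AC007228.9 (0.9922), MVB12A (0.9904) and ZNF775 (0.9877), out of 13992. Of the members PTGES3 came nearest (0.881) and PTGER2 was farthest (-0.929). These values rest on 6 libraries in 2 groups and carry no test.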
